A study of Rattus norvegicus with 6 samples.

Results

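The 32 genes described here encode the enzymes of glycolysis, the fructose kinase Khk, the carriers that move glucose and lactate across the cell membrane, and genes known for their response to low oxygen. They were chosen by name, and each was read from the probe set that carries its symbol alone in the array annotation, taking the probe set with the highest mean log2 signal where there were several. By that rule 31 of the 32 genes were found, among 14218 genes named on the array. Pkm, the muscle-type pyruvate kinase gene, was the exception, because its probe set is also assigned to a pseudogene. The members comprised 17 glycolytic enzymes, 4 transporters, 10 hypoxia genes and Khk. Khk was placed in the set with its low p-value in these arrays already known, so that its position is not independent evidence.

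RNA came from whole ovaries of female Sprague-Dawley rats 4 days old, kept in organ culture for 48 h. The 3 control samples received no factor, and the 3 NT3 samples received 50 ng/ml of recombinant human NT3, a neurotrophin. All ovaries were kept in the same medium, with albumin, ascorbic acid, transferrin and antibiotics, on floating filters. A sample pooled the RNA of 2 to 3 ovaries and was hybridised to its own Affymetrix array, and the series title concerns the passage of follicles from the primordial to the primary stage. The labels call the replicates biological without naming separate animals or litters, so that p-values measure the spread between these samples, which may be partly technical. A whole ovary mixes oocytes, granulosa cells, stroma, surface epithelium, vessels and blood cells, so that fewer cells of a type and less RNA per cell cannot be told apart.

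Glycolysis splits glucose into pyruvate in the cytosol, and lactate dehydrogenase interconverts pyruvate and lactate. When oxygen is scarce, the prolyl hydroxylases encoded by Egln1 and Egln3 no longer mark HIF1A for degradation, and the stabilised factor raises genes of glycolysis, glucose uptake and oxygen-independent survival. Oocytes use glucose poorly and depend on pyruvate supplied by the surrounding granulosa cells. Fructose enters the same route through ketohexokinase, which bypasses the regulated phosphofructokinase step.

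Stretches of promoter are shown here because many of the members are textbook targets of HIF1A, which binds the letters ACGTG or GCGTG. The RefSeq promoter table (build GRCr8) held 32 windows for 28 of the 32 listed genes, and the 250 bases before the start were searched for both words on both strands, with overlapping matches counted apart. At least 1 match lay in 21 of the 32 windows, or 65.6%, against 36.7% of 33469 windows over all genes, and ACGTG alone in 13, or 40.6%, against 16.6%. Since the members were picked partly as known hypoxia targets, these shares are a description of the set. The 170 bases before the start are printed below for the member with the most matches among the enzymes, the transporters and the hypoxia genes, for Bnip3, which comes next among the hypoxia genes, and for Khk, with matching letters in capitals. They lie at chr1:106507922-106508091 (+ strand) for Ldha, chr5:138002352-138002521 (+ strand) for Slc2a1, chr1:203154963-203155132 (- strand) for Bnip3, chr10:38743724-38743893 (+ strand) for P4ha2 and chr6:31175482-31175651 (- strand) for Khk.
Ldha: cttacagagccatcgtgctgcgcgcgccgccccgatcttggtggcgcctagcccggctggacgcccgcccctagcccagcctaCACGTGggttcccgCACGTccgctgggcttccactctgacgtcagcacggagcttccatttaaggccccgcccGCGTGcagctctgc
Slc2a1: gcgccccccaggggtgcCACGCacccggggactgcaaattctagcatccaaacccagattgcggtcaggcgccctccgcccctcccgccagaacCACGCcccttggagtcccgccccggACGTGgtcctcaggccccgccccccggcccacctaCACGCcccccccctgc
Bnip3: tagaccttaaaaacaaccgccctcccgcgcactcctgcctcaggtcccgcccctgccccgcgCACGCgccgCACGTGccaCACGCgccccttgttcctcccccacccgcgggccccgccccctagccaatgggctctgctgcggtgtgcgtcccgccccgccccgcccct
P4ha2: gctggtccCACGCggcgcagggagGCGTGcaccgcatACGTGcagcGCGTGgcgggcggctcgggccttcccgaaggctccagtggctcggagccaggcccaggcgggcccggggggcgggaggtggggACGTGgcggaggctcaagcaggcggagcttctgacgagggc
Khk: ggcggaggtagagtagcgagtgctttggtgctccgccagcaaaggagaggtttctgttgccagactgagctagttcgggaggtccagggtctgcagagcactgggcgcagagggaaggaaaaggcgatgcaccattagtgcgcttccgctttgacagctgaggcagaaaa

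Ldha carries 4 matches in its 250 bases, beginning 87, 86, 73 and 14 bases before the start. The pair at 87 and 86 is the same palindrome read on both strands. Slc2a1 and Bnip3 have 4 matches each and P4ha2 has 5. The Khk window holds neither word in its 250 bases, which says only that these letters are not there.

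Signals are the deposited intensities on a linear scale and differences are NT3 minus control in log2 signal. Signals of different probe sets are not on a common scale, so that levels are compared between arrays only. Of the 31 genes found, 28 lay above a filter on dim probe sets at a signal of 41.3 and were tested. Hk2, the inducible hexokinase gene, and Adm, the adrenomedullin gene, lay below it, and Gapdh has its sole symbol on control probe sets, which stay out of the test. Median signals ranged from 69 to 75 over the 6 arrays, whose small number sets the precision. Control replicate 2 stood apart in RNA quality. Its ratio of 3′ to 5′ signal was 6.83 for beta-actin, against 2.42 to 2.91 on the 5 other arrays, and 1.70 for Gapdh, against 1.09 to 1.25. For the hexokinase control probe sets, which are dim, it was 3.86 against 1.69 to 2.61. With that array set aside the NT3 arrays still had higher ratios than both controls. For beta-actin they were 2.78 to 2.91, with the controls at 2.42 and 2.60, and for Gapdh 1.21 to 1.25, with the controls at 1.09 and 1.14.

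No member passed the test. By limma with Benjamini-Hochberg adjustment over 18625 probe sets, 0 of the 28 members had an adjusted p under 0.05, against 0.00% of all tested probe sets, and the lowest adjusted p of a member was 1.00. At an unadjusted p under 0.05 there was 1 member with lower signal in NT3, Khk, where the share over all probe sets was 0.741%, and there were 0 with higher signal, where it was 0.548%. Khk was placed in the set with its low p-value known, so that this count was fixed by the choice. Among the 27 other members the lowest unadjusted limma p was 0.159. Blocking on the replicate number left the members' counts the same, while 1.22% of all probe sets were then lower and 0.934% higher at that level. Without control replicate 2 Khk was again the 1 member on the lower side and there were 0 on the higher, against 2.01% and 1.51%. Over the 28 members 17 had a higher and 11 a lower mean in NT3, with a median log2 difference of 0.033, against -0.0075 over all 10600 tested genes. Without control replicate 2 that became 12 higher and 16 lower, with a median of -0.017, and without NT3 replicate 1 the median was -0.012.

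**Figure D1:**
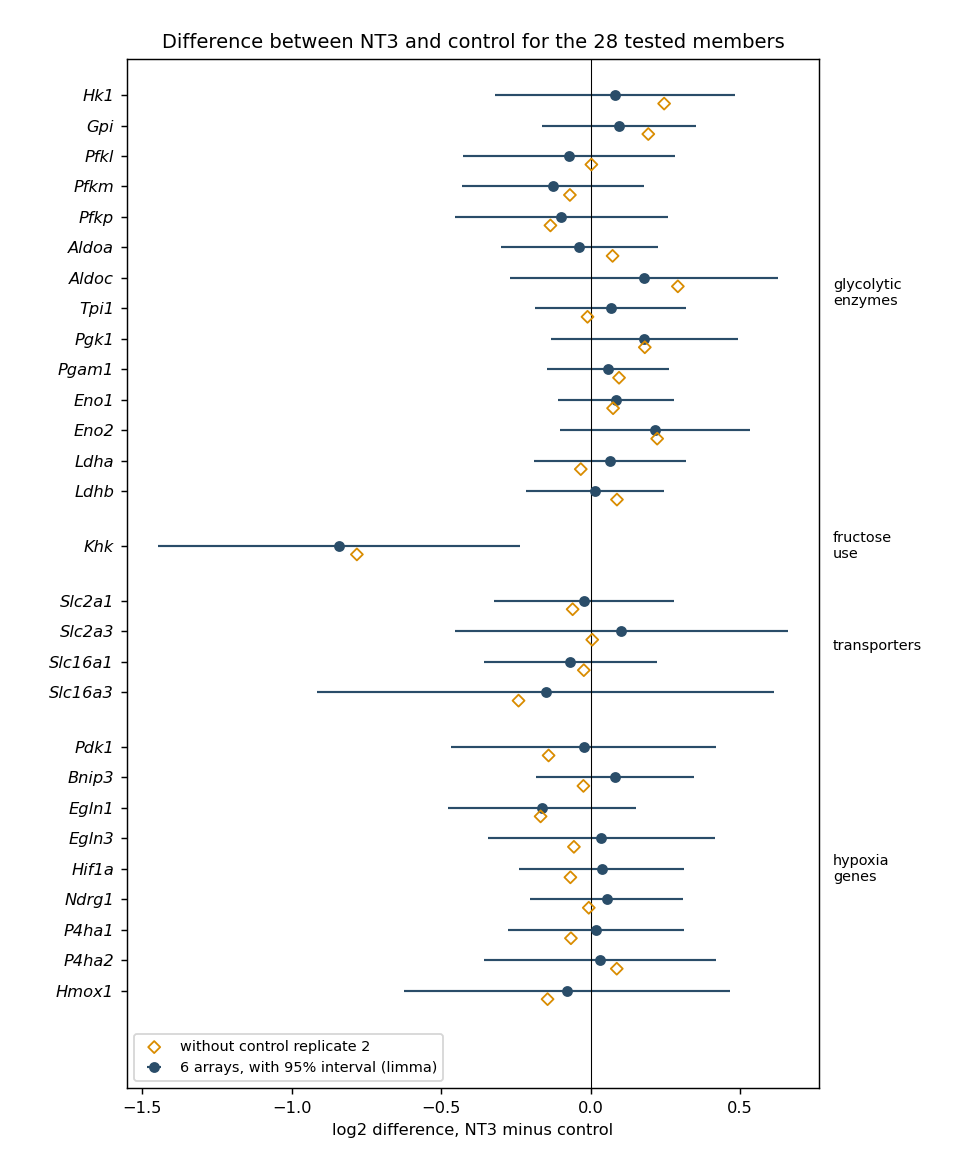
Log2 difference, NT3 minus control, for each of the 28 tested members, with the limma estimate from 6 arrays as a dot, its 95% interval as a line, and the value without control replicate 2 as a diamond. The interval of Khk, -1.45 to -0.24, is the 1 that does not include 0, and 9 members change sign without control replicate 2.

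Khk encodes ketohexokinase, which phosphorylates fructose. On control arrays 1, 2 and 3, in this order here and for every gene, its signal was 71.3, 77.3 and 65.3 (mean 71.3 ± 6.0 SD, n = 3), and on the NT3 arrays it was 52.1, 28.2 and 42.5 (mean 40.9 ± 12 SD, n = 3). Every NT3 array lay below every control array, and NT3 replicate 2 was the lowest. The log2 difference was -0.84 ± 0.27 (SE), or 0.558 of the control level, with an unadjusted limma p of 0.0117 and an adjusted p of 1.00. Within replicate numbers 1, 2 and 3 the log2 differences were -0.45, -1.45 and -0.62. The signals are low: NT3 replicate 2 was itself under the filter level of 41.3, and a filter at the 60th percentile removed the gene from the test. The log2 difference was -0.60 without NT3 replicate 2, at an unadjusted limma p of 0.0411, and -0.54 when control replicate 2 was left out of the blocked fit, at 0.0721.

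Other genes that handle fructose and sorbitol did not pass the test either. Slc2a5, the fructose transporter gene, had signals of 419.8, 600.9 and 409.5 in control and 387.0, 643.2 and 309.0 in NT3, with both arrays numbered 2 far above the rest. Akr1b1, the aldose reductase gene, had a log2 difference of -0.086 ± 0.098. Sord, which encodes the dehydrogenase that makes fructose from sorbitol, had -0.17 ± 0.13. Tkfc, the triokinase gene that acts after ketohexokinase, had -0.17 ± 0.16. Sord and Tkfc were both lower within each replicate number, as were 11.4% of all tested probe sets, though the groups overlapped. For Sord the log2 differences within numbers 1, 2 and 3 were -0.0056, -0.46 and -0.036. Without control replicate 2 Sord had -0.079 and Tkfc -0.082. For Tkfc control replicate 3, at 156.4, lay below NT3 replicates 1 and 2, at 162.9 and 174.9. Of the 7 tested genes in the list of the polyol route and hexose transport, 2 had a higher and 5 a lower mean in NT3, with a median log2 difference of -0.086, which was -0.0086 without control replicate 2.

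**Figure D2:**
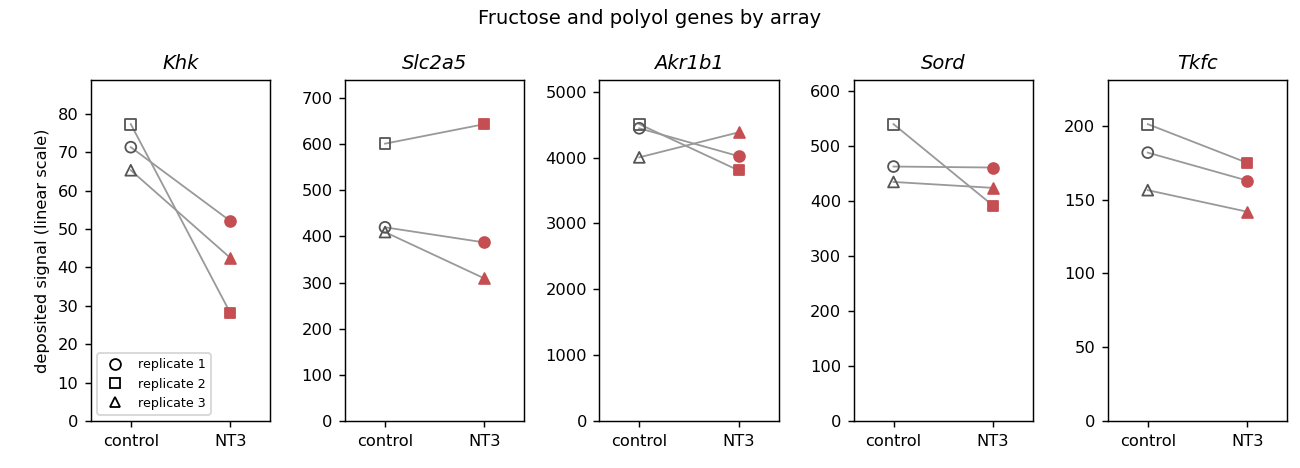
Deposited signal of Khk and of 4 other genes of fructose and sorbitol handling on each array, with lines joining control and NT3 arrays of the same replicate number and each axis starting at 0. Khk lies between 65.3 and 77.3 in control and between 28.2 and 52.1 in NT3, while Slc2a5 is highest on both arrays numbered 2, at 600.9 and 643.2.

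None of the glycolytic enzyme genes passed the test. Of 14 tested, 10 had a higher and 4 a lower mean in NT3, with a median log2 difference of 0.065, or 1.05-fold. Neither direction held a member with an unadjusted limma p under 0.05, and the lowest p was 0.159. The median was 0.081 without control replicate 2 and 0.013 without NT3 replicate 1, which had the highest signal of the 6 arrays for 6 of the 14 enzymes. Control replicate 2 was highest for another 6, Hk1, Gpi, Pfkl, Pfkm, Aldoa and Ldhb. The median over all tested genes also lay highest on that array, at 0.064 above the mean of the 6 arrays on the log2 scale.

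Hk1 encodes the hexokinase that phosphorylates glucose in most tissues. Its signal was 201.3, 288.6 and 208.9 in control and 274.4, 246.6 and 212.2 in NT3. The groups overlapped because control replicate 2 was the highest array, and without it all 3 NT3 arrays lay above the controls and the log2 difference moved from 0.081 ± 0.18 to 0.25, at an unadjusted limma p of 0.117. Hk2 had 20.4, 16 and 20.5 in control and 29.9, 12.8 and 17.5 in NT3, levels under the filter that carry no test. Gpi, the glucose-6-phosphate isomerase gene, showed the shape of Hk1 on a smaller scale, with 0.094 ± 0.11 and 0.19 without control replicate 2.

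The 3 phosphofructokinase genes, which encode the regulated step of the route, all had lower means in NT3. Pfkm, the muscle-type subunit gene, had signals of 348.4, 359.2 and 293.8 in control and 331.8, 277.1 and 308.0 in NT3. Pfkp, the platelet-type gene, had 446.2, 408.8 and 435.8 in control and 355.7, 355.9 and 511.5 in NT3, where replicate 3 was the highest of all 6 arrays and the other two NT3 arrays the lowest. Their log2 differences were -0.13 ± 0.13 and -0.099 ± 0.16. Pfkl, the liver-type gene, had -0.074 ± 0.16, and without control replicate 2 it was 0.0019. The groups overlapped for all 3, and a second tested probe set of Pfkm had -0.014.

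In the middle of the route, Aldoa and Aldoc encode aldolases, which split fructose bisphosphate, and Tpi1 the isomerase of its products. Their log2 differences were -0.039 ± 0.12, 0.18 ± 0.20 and 0.066 ± 0.11. Aldoa turned to 0.073 and Tpi1 to -0.011 without control replicate 2. Gapdh, the dehydrogenase gene often used as a reference, had 4674.0, 4741.4 and 4807.6 in control and 5347.5, 4917.3 and 4680.5 in NT3 at its 3′ control probe set. Its groups overlapped, and the middle and 5′ probe sets had log2 differences of 0.081 and 0.13, against 0.069 at the 3′ end. The 5′ value was -0.076 without control replicate 2. Control replicate 2 was the lowest array at the 5′ end, at 2785.3 against 3883.4 to 4294.5, and at the middle, at 3032.4 against 3404.8 to 3811.7, but not at the 3′ end.

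Pgk1, which encodes the kinase of the first step that yields ATP, had 3472.4, 3093.1 and 2736.8 in control and 4196.7, 3114.0 and 3263.4 in NT3. NT3 replicate 1 was the highest array and control replicate 3 the lowest. The log2 difference was 0.18 ± 0.14, with 0.047 without NT3 replicate 1 and 0.065 at a second probe set with the suffix of a shared sequence. A blocked fit without control replicate 2, added after the data were seen and resting on 2 complete pairs, gave 0.26 at an unadjusted limma p of 0.0111 and an adjusted p of 0.746. Pgam1, the phosphoglycerate mutase gene, had 0.058 ± 0.090.

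Both enolase genes among the members, Eno1 and Eno2, had every NT3 array above every control array. A further enolase gene outside the members, Eno3, had a lower mean in NT3. Its log2 difference was -0.14 ± 0.23, with overlapping groups and signals of 37.4 to 51.9. Eno2, the neuron-specific enolase gene, had 157.9, 160.9 and 159.3 in control and 201.9, 186.6 and 168.0 in NT3. Its controls lay close together, and the NT3 arrays spread more widely. Eno1, the widely expressed form, had 3312.5, 3225.3 and 3264.7 in control and 3588.1, 3316.1 and 3489.4 in NT3. The gap between the groups was narrow, and with quantile normalization or centring on the median the groups of Eno1 overlapped. The log2 differences were 0.22 ± 0.14 for Eno2, at an unadjusted limma p of 0.159, and 0.084 ± 0.086 for Eno1, at 0.354. These 2 of 28 members, or 7.14%, compare with 2.62% of all tested probe sets that had every NT3 array above, and Khk, as 1 of 28 or 3.57%, with 3.21% that had every NT3 array below. Khk entered the set with its low p-value already known, so that its count is not independent evidence. 

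These counts moved with single arrays, and fewer arrays make it easier for any probe set to show no overlap, so that each count is given with its own share over all tested probe sets. Every NT3 array lay above for 6 members without control replicate 2 (8.81% of all probe sets), with Hk1, Gpi, Aldoc and Pgam1 added. It was 3 without control replicate 1 (7.15%), with Pgk1 added, and 3 without NT3 replicate 3 (7.29%), with Slc2a3 added. It was 2 without control replicate 3 (6.66%), NT3 replicate 1 (5.07%) or NT3 replicate 2 (5.65%). Every NT3 array lay below for 4 members without NT3 replicate 1 (7.01%), with Slc16a3, Egln1 and Hmox1 added to Khk. It was 3 without control replicate 3 (10.1%), with Pfkl and Pfkm added, and 2 without NT3 replicate 3 (7.30%), with Pfkp added. Khk alone was left without control replicate 1 (7.16%), control replicate 2 (9.65%) or NT3 replicate 2 (6.83%).

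Ldha and Ldhb encode the muscle-type and heart-type subunits of lactate dehydrogenase. Ldha had 3032.0, 2405.4 and 2858.2 in control and 3085.1, 2752.8 and 2801.5 in NT3. Ldhb had 2831.4, 3404.0 and 3000.8 in control and 3263.0, 2935.9 and 3100.8 in NT3. In control replicate 2 Ldha was at its lowest and Ldhb at its highest of the 6 arrays, and the groups overlapped for both. Their log2 differences were 0.064 ± 0.11 and 0.013 ± 0.10, and Ldha had -0.034 without control replicate 2. The 95% intervals, 0.877 to 1.25-fold for Ldha and 0.860 to 1.18-fold for Ldhb, give the differences these arrays leave possible.

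**Figure D3:**
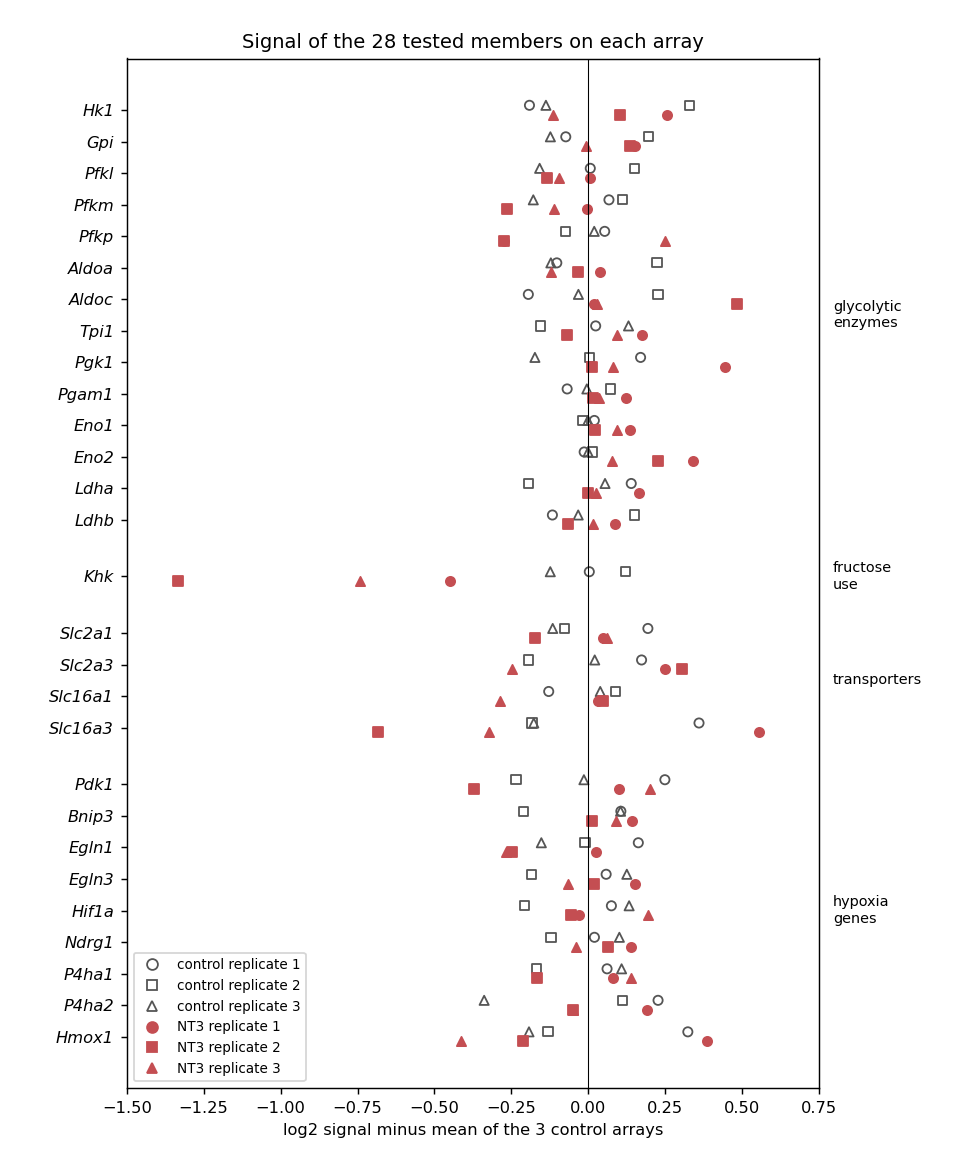
Log2 signal of each of the 28 tested members on each array, minus the mean of the 3 control arrays, with open symbols for control, filled for NT3 and a symbol shape for each replicate number. Khk stands to the left on all 3 NT3 arrays, Eno1 and Eno2 lie to the right of their controls, and control replicate 2 stands at an edge of many rows.

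The precision differed between members. The standard error of the log2 difference ranged from 0.086 for Eno1 to 0.34 for Slc16a3, with a median of 0.14 over the members against 0.18 over all tested probe sets. For the 14 enzymes the limit of the 95% interval farther from no change lay between 1.18-fold and 1.54-fold in either direction.

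None of the 4 transporter genes passed the test, with a median log2 difference of -0.045. Slc2a1, which encodes the glucose carrier GLUT1, had 436.3, 361.3 and 352.1 in control and 394.4, 338.2 and 397.8 in NT3, and the groups overlapped. Slc2a3, the GLUT3 gene, had 52.9, 41.0 and 47.6 in control and 55.8, 57.9 and 39.5 in NT3. The log2 differences were -0.022 ± 0.13 and 0.10 ± 0.25.

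Slc16a1 and Slc16a3 encode the lactate carriers MCT1 and MCT4. Slc16a1 had 533.1, 620.1 and 598.7 in control and 596.3, 602.7 and 477.9 in NT3, a log2 difference of -0.068 ± 0.13. Slc16a3 had 71.1, 48.8 and 49.0 in control and 81.4, 34.5 and 44.3 in NT3, so that replicate 1 was the highest array of each group. Its log2 difference of -0.15 ± 0.34 was the least precise of all members, and became -0.50 without NT3 replicate 1 and 0.12 without NT3 replicate 2. The median of the 4 genes was 0.053 without control replicate 1 and 0.028 without NT3 replicate 2.

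None of the genes known for their response to low oxygen passed the test, and the sign of their median turned with a single array. Of 9 tested hypoxia members 6 had a higher and 3 a lower mean in NT3, with a median log2 difference of 0.031. Without control replicate 2 only P4ha2 was higher and the 8 others were lower, with a median of -0.066. Control replicate 2 was the lowest of the 6 arrays for 5 of the 9, Bnip3, Egln3, Hif1a, Ndrg1 and P4ha1, and it was also the library with the highest 3′ to 5′ ratios. The part of RNA quality in this was not tested. Without NT3 replicate 1 the median was -0.023, and with array weights it was -0.040.

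Hif1a encodes the oxygen-regulated subunit of the factor itself, which is controlled mainly at the level of protein. It had 2056.4, 1689.7 and 2140.2 in control and 1912.1, 1876.2 and 2233.3 in NT3. In both groups replicate 2 was the lowest and replicate 3 the highest array. Its log2 difference was 0.036 ± 0.12. Egln1 had 393.9, 349.4 and 316.6 in control and 358.4, 296.3 and 292.5 in NT3, and was lower in NT3 within each replicate number, at -0.16 ± 0.14 with an unadjusted limma p of 0.272. Khk and Egln1 were the 2 tested members lower in all 3 pairs, where 11.4% of all tested probe sets were, and 5, Aldoc, Pgk1, Eno1, Eno2 and P4ha1, were higher in all 3, where 9.78% were. Egln3, the hydroxylase gene that HIF itself induces, had 115.4, 97.6 and 120.9 in control and 123.2, 112.2 and 106.0 in NT3, with the groups overlapping and a difference of 0.035 ± 0.17.

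Bnip3, which encodes a mitochondrial protein of mitophagy and cell death, had 1020.7, 819.4 and 1020.0 in control and 1045.7, 956.0 and 1009.3 in NT3. Ndrg1, a stress-response gene, had 497.1, 450.7 and 525.8 in control and 539.4, 512.2 and 476.9 in NT3. The groups overlapped for both, and the log2 differences of 0.081 ± 0.12 and 0.054 ± 0.11 became -0.025 and -0.0068 without control replicate 2. Pdk1, the gene of a kinase that inhibits pyruvate dehydrogenase, had -0.024 ± 0.20. P4ha1 and P4ha2, which encode the collagen prolyl hydroxylases, had 0.018 ± 0.13 and 0.031 ± 0.17. Adm, which was too dim to test, read 37.5, 27.5 and 29.5 on the control arrays and 37.4, 17.1 and 29.4 on the NT3 arrays.

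**Figure D4:**
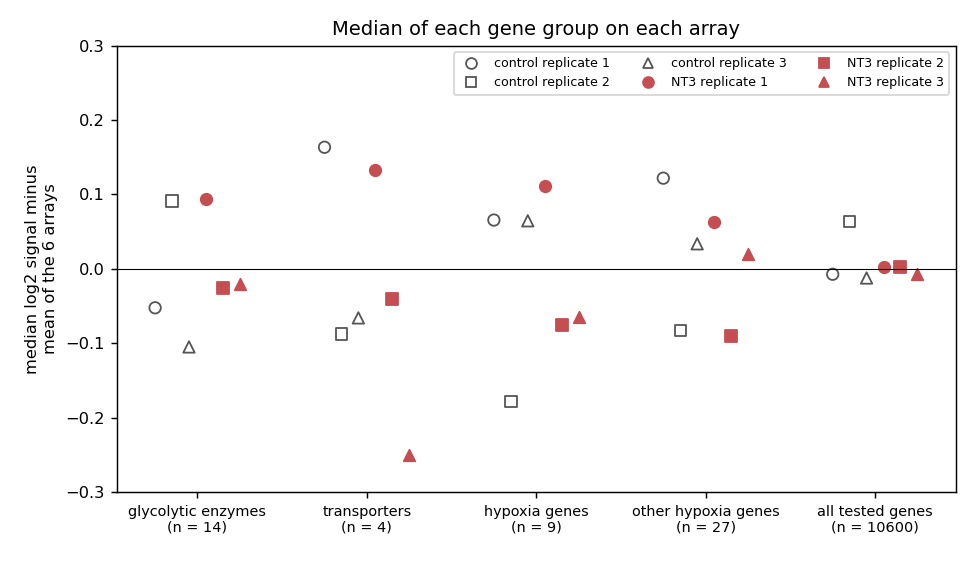
Median over each gene group of the log2 signal minus the mean of the 6 arrays, for each array, with open symbols for control, filled for NT3 and a symbol shape for each replicate number. For the hypoxia members control replicate 2 lies at -0.18 and NT3 replicate 1 at 0.11, while the median over all 10600 tested genes stays between -0.012 and 0.064.

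Several hypoxia genes took their extreme values on arrays of the same replicate number. This pattern was noticed in these arrays and is given as counts with no test, for each number and both directions. For 4 of the 9 hypoxia members, Pdk1, Bnip3, Hif1a and P4ha1, both arrays numbered 2 lay below the 4 others, where 13.5% of all tested probe sets did so. For 4, Bnip3, Egln1, P4ha2 and Hmox1, both arrays numbered 1 lay above the 4 others, where the share over all tested probe sets was 9.15%. P4ha1 had 443.1 and 444.1 on the arrays numbered 2 against 519.9 to 548.9 on the others, and Pdk1 163.8 and 149.0 against 190.9 to 229.1. Bnip3 was above on the arrays numbered 1 by a small margin, at 1020.7 and 1045.7 against 1020.0 for control replicate 3. Both arrays numbered 3 lay above the others for 2, Hif1a and P4ha1, against 7.80% of all tested probe sets, and below for 1, P4ha2, against 10.8%. Both numbered 1 lay below for 0, against 7.74%, and both numbered 2 above for 0, against 14.4%. Among the 14 glycolytic enzymes 2, Tpi1 and Ldha, or 14.3%, had both arrays numbered 2 lowest, near the 13.5% of all tested probe sets. Both numbered 1 were highest for 2, Pgk1 and Ldha, against 9.15%. Both numbered 2 were highest for 1, Aldoc, against 14.4%, and both numbered 3 lowest for 1, Aldoa, against 10.8%. Both numbered 1 were lowest for 0, and both numbered 3 highest for 0.

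Of 27 tested genes in a further list of hypoxia genes, 9, or 33.3%, had both arrays numbered 2 below the others, and 4, or 14.8%, had both numbered 1 above. Plod2, a collagen lysyl hydroxylase gene, had 424.2 and 438.4 there against 652.8 to 698.1, and Vegfa, the vascular growth factor gene, 234.9 and 228.9 against 273.0 to 363.3. Granulosa markers had both arrays numbered 2 below the others for 3 of 8 tested, or 37.5%, and above for 1, Fst. Their summed signal was 5564 and 4396 on the arrays numbered 2 against 4981 to 5735 elsewhere. Markers of surface and oviduct epithelium were often highest there. Of 9 tested of 10 listed, 5 had both arrays numbered 2 above the others, and their summed signal was 11681 and 11596 on those arrays against 7496 to 8744 elsewhere. Most of that sum is Krt19, at 7363.3 and 7191.2 on the arrays numbered 2, and Wfdc2 was at its lowest on control replicate 2. No marker of that list was at 0, the part of the tissue's makeup in the hypoxia values was not tested, and what the numbers stand for is not given in the labels.

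**Figure D5:**
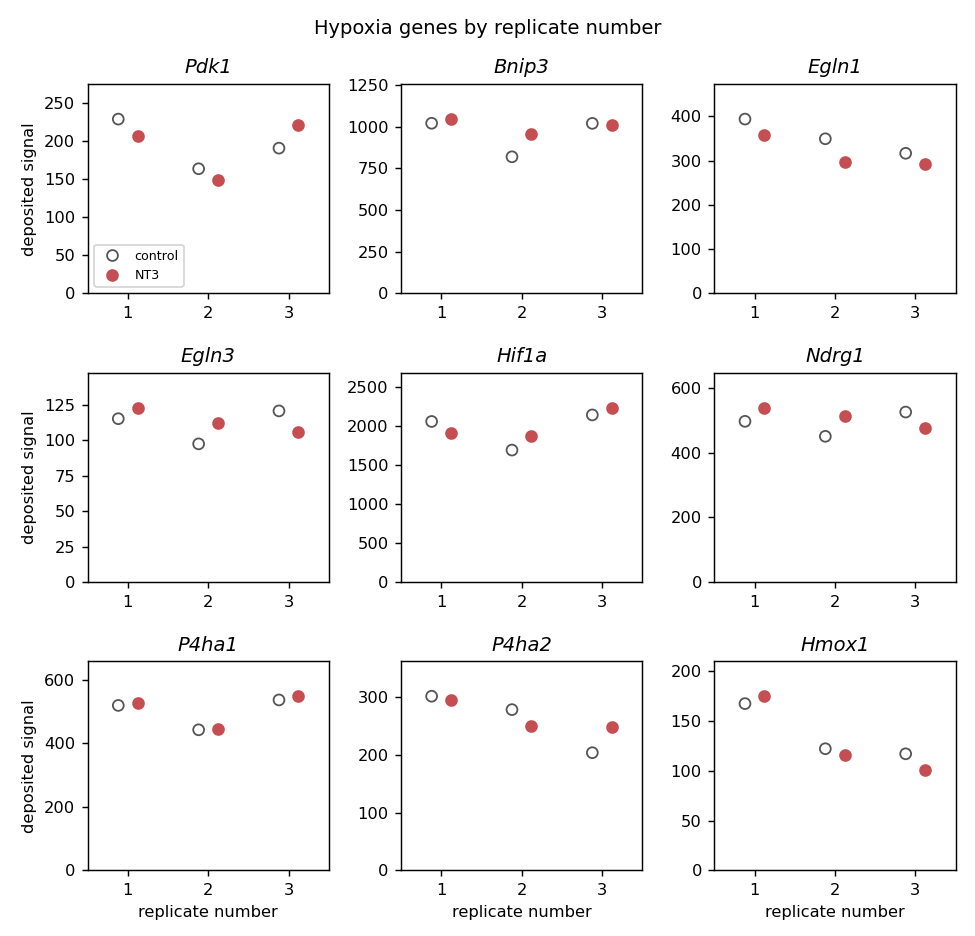
Deposited signal of the 9 tested hypoxia members by replicate number, with open circles for control, filled circles for NT3 and each axis starting at 0. Pdk1, Bnip3, Hif1a and P4ha1 are lowest on both arrays numbered 2, and Hmox1 is highest on both numbered 1.

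Hmox1, the haem oxygenase gene, which responds to haem and oxidative stress as well as to low oxygen, had 167.2, 122.0 and 116.9 in control and 174.6, 115.4 and 100.4 in NT3. Replicate 1 was the highest array in both groups, at 167.2 and 174.6, and the log2 difference was -0.079 ± 0.24. Red cell markers were high on the same arrays. Of 10 red cell genes 5 were on the array and 2 were tested, and the sum of these, Hbb and Alas2, was 2812 and 2748 on the arrays numbered 1 against 1956 to 2590 on the others. Nearly all of that sum is Hbb, at 2745.9 and 2685.4 on the arrays numbered 1. Alas2 was also highest there, at 66.2 and 62.7 against 49.8 to 57.9. Macrophage markers, of which 9 of 10 were tested, summed to 1792 and 1912 on the arrays numbered 1 against 1696 to 2055 elsewhere. Their part in the Hmox1 values was not tested. Neither list had a tested marker at 0.

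The other genes of the pathway held no call in either direction. Lists of 96 further genes of glycolysis, pyruvate use, hexose transport, the pentose phosphate route, glycogen and hypoxia had 84 on the array and 68 tested, of which 36 had a higher and 32 a lower mean in NT3. By limma 0 of the 68 had an unadjusted p under 0.05, and when the fit was blocked on replicate number there was 1, Fbp2, the muscle-type fructose bisphosphatase gene, at -0.33 with an unadjusted p of 0.0335 and an adjusted p of 1.00.

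Among 21 tested genes of glycolysis and pyruvate use, the median log2 difference was 0.032. The lowest p-values belonged to G6pc3, a glucose-6-phosphatase gene, at -0.35 ± 0.17, and to Pdhb, a subunit gene of pyruvate dehydrogenase, at 0.22 ± 0.12. Among 13 of the pentose phosphate route and glycogen the median was 0.014, with Pgm2, a phosphoglucomutase gene, at 0.22 ± 0.12 and Pgls, the lactonase gene, at -0.21 ± 0.14. In the polyol and transport list they were Slc16a7, the MCT2 gene, at 0.29 ± 0.26 and Sord, given above. In the 27 further hypoxia genes the median was 0.0058, or -0.048 without control replicate 2, with Arnt2, a partner subunit gene of the HIF family, at 0.30 ± 0.19 and Txnrd1, a thioredoxin reductase gene, at -0.19 ± 0.12.

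The tissue carried the markers of an ovary. All 7 oocyte markers on the array, with Zp3 at 3544.4 to 4500.5, 8 of 9 granulosa markers, with Foxl2 at 478.8 to 766.5, and 8 of 10 stroma and theca markers lay above the filter. The stroma and theca markers, all 8 with a higher mean in NT3, had a median log2 difference of 0.12, with 6 of 8 higher without control replicate 2, and the 8 endothelial markers, all with a lower mean, had -0.096. Macrophage markers had 7 of 9 higher at a median of 0.17, and smooth muscle markers 5 of 7 higher at 0.18. The smooth muscle markers differed among themselves. Myh11 had every NT3 array below every control array, at -0.46 ± 0.21, where 3.21% of all tested probe sets did so. Acta2, with a higher mean, was higher within 1 replicate number only. Without control replicate 2, where 8 of 9 hypoxia members had a lower mean in NT3, oocyte markers had 6 of 7 lower at a median of -0.33, against -0.042 on all arrays, and granulosa markers 5 of 8 lower at -0.25, against -0.034. Of the oocyte markers Zp2 then had -0.015, Zp3 -0.096 and Sycp3 0.15. In that setting all 8 endothelial and the 2 tested red cell markers were lower. Higher were 8 of 9 surface and oviduct epithelium markers (median 0.16), 6 of 7 smooth muscle (0.21) and 7 of 9 macrophage markers (0.13). On all arrays 4 of 9 epithelium markers were higher, at a median of -0.00045. Of that list Cldn3 had every NT3 array above every control array, as 2.62% of all tested probe sets did. Its log2 difference was 0.92 ± 0.24, at an unadjusted limma p of 0.00372. The part of these markers in the members' differences was not tested.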

How the data were processed

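Gene expression was measured on 1-colour Affymetrix arrays, 3 control and 3 NT3. Linear intensities, 1 for each probe set on each array, were deposited by the authors, who made them with MAS5 per the submitters' processing notes (version not given in the sources used). Each array has a 2% trimmed mean of 210.1, so that intensities are relative to the array's total.

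From the 31099 probe sets 57 control probe sets were removed, and the rest were put on the log2 scale without rescaling, after values under 0.1 were raised to it (5 probe sets held a 0). The filter removed those with a mean log2 signal under the 40th percentile, 5.37. NT3 was compared with control on all 6 arrays by limma (version 3.58.1, R 4.3.3; lmFit, then eBayes with a trend), 2-sided, with Benjamini-Hochberg adjustment at 0.05 over 18625 probe sets. Standard errors are limma's moderated ones, and the fit was tested on simulated data.

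Probe sets were named through the platform annotation, which gave a single symbol to 20832 of them, several to 436 and none to 9831. Members, lists and tests were chosen with earlier results of these data known, so that no list was tested as a set. Members with an unadjusted p under 0.05, the 2 members of each group with the lowest p in each direction and 10 members chosen for their role are given on every array, and others by summary. Pkm, 1 of these 10, has no probe set with its symbol alone and is given no value. Of each further list, genes with an unadjusted p under 0.05 are named, or else the 1 with the lowest p in each direction. Genes named for another reason, such as Eno3, Slc2a5, Akr1b1, Tkfc, Plod2, Vegfa and Nqo1, were chosen after their values were seen.

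Both groups carry the replicate numbers 1 to 3 in their titles. Across probe sets, deviations from group means correlated at 0.230, 0.247 and 0.222 between arrays of equal number, and at most 0.029 between arrays of unequal number. Deviations cancel over the arrays of a group. Low values for unequal numbers are thus partly built in once those for equal numbers are positive. Arrays of equal number were read as pairs from these correlations, and not from any statement in the labels. This pairing enters the differences within replicate numbers and the block fits only. The main fit has no block, so that its standard errors, intervals and p-values are unpaired. The block fit is given where it changes a count. Alternatives were this block, quantile normalization, median centring, no filter or a 60th-percentile filter, 16 added before log2, a fit with no trend, array weights, averaging a gene's probe sets, and each array left out. The block without control replicate 2 was added after the data were seen.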

Additional observations from a re-analysis of the deposited data

How the results depend on the processing

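No member had an adjusted limma p under 0.05 under any of the 16 alternatives, and the lowest was 0.746. The member medians moved by less than the spread between replicates under all 16, although some turned sign as given with the groups. With 3 arrays a group, leaving 1 out can hardly move a median past that spread, so that this says little about how stable the medians are. With the replicate number as a block, 401 probe sets had an unadjusted p under 0.05 in place of 240, with 1 further pathway gene lower in place of 0, and no member changed its side of 0.05. That count of probe sets was 752 with no filter, 123 with a filter at the 60th percentile, 377 with no variance trend, 585 with array weights and 90 when each gene's probe sets were averaged. Under the filter at the 60th percentile and averaged probe sets Khk lay below the filter, so that 0 members were lower at an unadjusted p under 0.05 and 0 had every NT3 array below. Quantile normalization and median centring each left 1 member, Eno2, with every NT3 array above. The block without control replicate 2, which rests on 2 complete pairs, gave 4 probe sets with an adjusted p under 0.05, none of them a member's, and 962 with an unadjusted one, with 1 member higher, 0 lower, 6 with every NT3 array above and 3 further pathway genes lower.

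With single arrays left out, the probe sets at an unadjusted p under 0.05 numbered 176 to 656 (656 without control replicate 2, 420 without control replicate 3), the members with every NT3 array above 2 to 6 of 28, where 5.07% to 8.81% of all probe sets did so, and below 1 to 4, where 6.83% to 10.1% did so, and the further pathway genes at that level 0 to 2 in each direction. Of the 28 tested members 19 turned sign under some alternative, and these values are log2 differences. Ldhb had -0.018 with quantile normalization. With array weights Aldoa had 0.063, Egln3 -0.0076, Hif1a -0.061 and P4ha1 -0.040. Pgk1 had -0.17 with the mean of its probe sets, 1 of which has signals of 0.4 to 7.7. With the block and without control replicate 2 Pfkl had 0.032, Aldoa 0.070, Ldha -0.0019, Slc2a1 0.015, Slc2a3 -0.096, Slc16a3 0.025, Pdk1 0.033, Egln3 -0.048, Hif1a -0.022 and Ndrg1 -0.012. With single arrays left out the ranges were -0.015 to 0.25 for Hk1, -0.15 to 0.0019 for Pfkl, -0.10 to 0.073 for Aldoa, -0.011 to 0.13 for Tpi1, -0.034 to 0.13 for Ldha and -0.045 to 0.087 for Ldhb. They were -0.079 to 0.075 for Slc2a1, -0.13 to 0.041 for Slc16a1, -0.50 to 0.12 for Slc16a3, -0.14 to 0.15 for Pdk1, -0.025 to 0.13 for Bnip3 and -0.057 to 0.098 for Egln3. They were -0.068 to 0.10 for Hif1a, -0.0068 to 0.10 for Ndrg1, -0.066 to 0.11 for P4ha1, -0.14 to 0.14 for P4ha2 and -0.31 to 0.087 for Hmox1. The causes of these changes of sign were not tested.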

Other observations

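Of the further pathway genes on the array, 16 lay below the filter and have no test. The groups overlapped for 13 of them, every NT3 array was below for 2, Pklr and Pck1, and above for 1, Epo, whose signals were at most 7.0. These were picked out after their values were seen. Pklr, the liver and red cell pyruvate kinase gene, had 33.4, 55.5 and 21.3 in control and 14.1, 7.9 and 16.9 in NT3. Pck1, which encodes the cytosolic carboxykinase of gluconeogenesis, had 24.4, 26 and 35.1 in control and 19.3, 22.5 and 24.1 in NT3.

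Nqo1, a quinone reductase gene of the oxidative stress response, had 736.0, 519.9 and 374.1 in control and 913.6, 501.5 and 398.2 in NT3. Like Hmox1 it was highest on both arrays numbered 1, and its log2 difference between NT3 and control was 0.12 ± 0.32. A second, dim probe set of P4ha2, also below the filter, had 32, 33.6 and 23.3 in control and 41.7, 40.3 and 47.8 in NT3, whereas the probe set used had overlapping groups.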
